A study of Oryza longistaminata with 9 samples.

Results

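The WRKY transcription factor genes of the African wild rice Oryza longistaminata were examined in anthers at 2 stages of pollen development. The Ls-6mm anthers were taken from 6-mm spikelets (stage 6), which hold microspore mother cells and a tapetum. The Ls-4mm anthers were taken from 4-mm spikelets (stage 4), which hold primary sporogenous cells. Both stages were wild plants of a single species with no treatment, each stage had 3 RNA-seq libraries, and the 8.5-mm stage was not analysed here. A gene was taken as a member when the transcription factor family column of the deposited table read WRKY or its description contained that word. This rule gave 103 of 46327 genes, all 103 by the family column and 73 of them also by description.

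WRKY proteins are plant transcription factors that carry a conserved DNA-binding domain with a zinc finger and bind the W box, a short element found in many plant promoters. They are best known from immunity: mitogen-activated protein (MAP) kinases phosphorylate some of them, VQ motif proteins bind others, and many act on pathogenesis-related genes downstream of salicylic acid or jasmonate. Members of the family also act in hormone signalling, drought and nutrient responses, and in Arabidopsis some are required in developing pollen.

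The annotation of the members was uneven. Of the 103 genes, 51 were described only by the Pfam WRKY domain, 29 had no description, 22 carried a WRKY number and 5 had a gene name (WRKY24, WRKY51, WRKY62, WRKY71 and WRKY76). One member, BGIOSGA017063, was described as an HKT12 transporter while its family entry read WRKY, so its identity is uncertain. Genes without a number are called below by their identifier alone.

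Total counts were 17076800 to 21232663 per Ls-6mm library and 14509449 to 16684146 per Ls-4mm library. The anther label was set against marker lists. Of 42 genes listed as tapetum markers, 24 were tested, 19 were higher and 2 lower in Ls-6mm, with summed levels of 1887 to 1962 CPM (counts per 1000000 reads after scaling) in Ls-6mm and 743 to 876 CPM in Ls-4mm, while 7 of the 42, the anther gene RTS among them, were at 0 in all 6 libraries. Of 6 meiotic genes, 3 were lower in Ls-6mm and 2 were not called, with sums of 31.0 to 35.6 CPM in Ls-6mm and 86.3 to 98.0 CPM in Ls-4mm. Of 49 green tissue genes (light-harvesting, photosystem and Rubisco), 39 were higher and 4 lower, with sums of 5636 to 5848 CPM in Ls-6mm and 2224 to 2564 CPM in Ls-4mm. These sums moved with stage, and their part in the WRKY values below was not tested. In such bulk samples fewer cells of a type and less RNA per cell cannot be told apart.

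Most WRKY genes had few reads in these anthers. At least 1 count was found for 89 of the 103 genes, and 14 were at 0 in all 6 libraries (13.6%, against 29.7% of all genes). Counts were present for 87 genes in Ls-6mm and 78 in Ls-4mm. Of these, 76 had counts in both stages, 11 in Ls-6mm only and 2 in Ls-4mm only. The whole table leaned the same way, and the Ls-6mm libraries were deeper. Without a count in Ls-6mm were 16 members and 14922 of all 46327 genes. Without one in Ls-4mm were 25 members and 17310 genes. A mean level under 1 CPM in both stages was found for 63 genes. Of the members 43 passed the filter on low counts and were tested (41.7%, against 51.1% of all genes), and 60 were not. A member present in a single stage could pass that filter only through the stage where it was high.

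The summed level of the WRKY genes, to which the most abundant members contribute most, was lower in Ls-6mm. Summed over the 103 genes, the level was 484, 479.4 and 478.5 CPM in the Ls-6mm libraries and 585, 631 and 603 CPM in the Ls-4mm libraries. The lowest Ls-4mm library lay above every Ls-6mm library. The means were 480.6 ± 2.92 CPM in Ls-6mm and 606 ± 23.4 CPM in Ls-4mm (SD, n = 3 each), a log2 ratio of −0.34 that is given as a description. The 23 members called lower fell to 325 CPM in Ls-6mm against 530 CPM in Ls-4mm, whereas the 14 members called higher reached 124 CPM in Ls-6mm against 48.6 CPM in Ls-4mm. The 60 untested genes together gave 8.77 CPM in Ls-6mm and 6.90 CPM in Ls-4mm. The 5 most abundant members made up 49.0% of the sum in Ls-6mm and 56.7% in Ls-4mm.

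**Figure D1:**
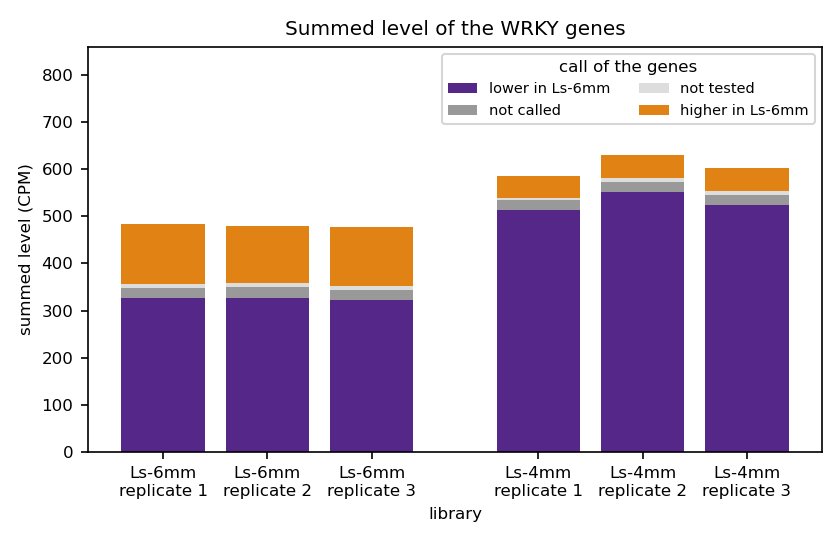
Summed level of the 103 WRKY genes in CPM (vertical axis) in each of the 3 Ls-6mm and 3 Ls-4mm libraries, each bar split by the call of the genes. The Ls-6mm bars reach 478.5 to 484 CPM and the Ls-4mm bars 585 to 631 CPM, and the portion from genes higher in Ls-6mm is larger in the Ls-6mm bars.

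A gene was called changed when its adjusted p in edgeR's quasi-likelihood test (Benjamini-Hochberg over 23691 genes) was under 0.05, whatever the fold change. Of the 43 tested WRKY genes, 14 had a higher and 23 a lower level in Ls-6mm, and 6 were not called. Over all genes tested 80.6% were called, 42% higher and 38.6% lower, and the WRKY shares were 32.6% higher and 53.5% lower. Under a stricter rule (adjusted p of 0.001 or less and a change of 2-fold or more), 8 WRKY genes were higher and 12 lower, against 23.6% and 13.3% of all genes. The median log2 fold change of the 43 was −0.35, beside 0.04 for all genes, and it was −0.18 without Ls-4mm replicate 2. Over all 89 members with a count, fitted without the filter, it was −0.058, beside 0.13 for all genes. The libraries of the 2 stages did not overlap for 36 of the 43 genes, with Ls-6mm above for 14 and Ls-4mm above for 22. Over all 23691 genes tested, 81.7% did not overlap, with Ls-6mm above for 10106 genes and Ls-4mm above for 9251.

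Of the 14 rises, 9 were of genes with a mean under 1 CPM in Ls-4mm, or 64.3%, against 28% of the rises over all genes. At such levels a gene passes the filter mainly through Ls-6mm, where it is high. Of the 23 falls, 3 left a mean under 1 CPM in Ls-6mm, or 13%, against 8.8% over all genes. Those genes passed the filter mainly through Ls-4mm, where they were high. Among the 13 WRKY genes at 10 CPM or more in Ls-4mm, 10 were lower in Ls-6mm, 2 were higher and 1 was not called. A choice by the Ls-4mm level favours falls, and the same share over all genes was not computed. Of the 13 members above 10 CPM in Ls-6mm, 4 were higher there and the others were lower or not called. These shares were not tested against each other.

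**Figure D2:**
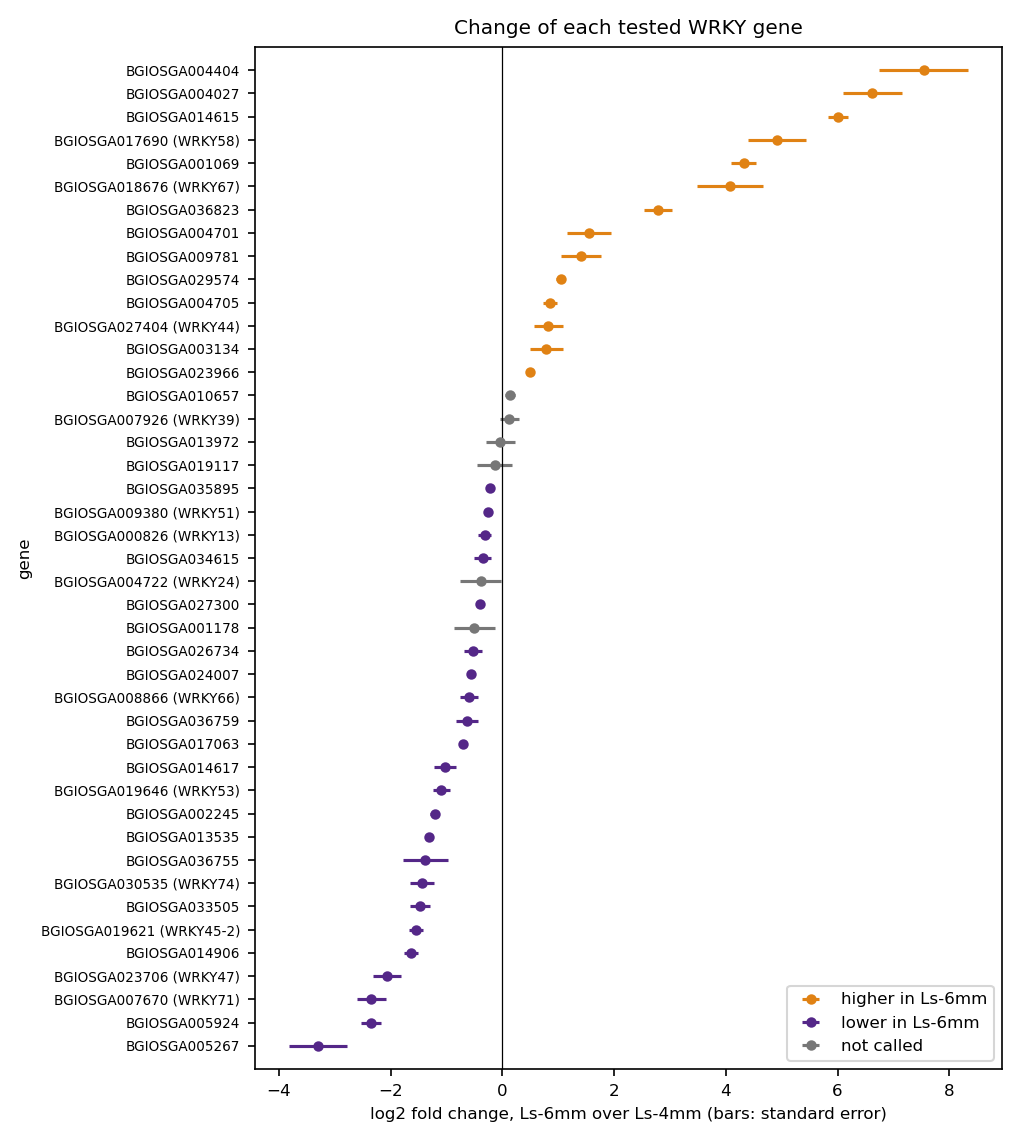
Log2 fold change of Ls-6mm over Ls-4mm (horizontal axis) for each of the 43 tested WRKY genes (vertical axis), with the standard error as a bar and the call as the colour. The 14 genes called higher extend to fitted values above 6, the 23 called lower end at −3.30, and the fitted value of BGIOSGA004404, at 0 in Ls-4mm, depends on the prior count and is no bound.

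Of the 8 most abundant members per length, 7 were shared by the stages. By FPKM (fragments per kilobase of gene and 1000000 fragments), a scale that allows levels of different genes to be compared, BGIOSGA014615 led in Ls-6mm at 51 FPKM, where its Ls-4mm level was 0.813 FPKM. BGIOSGA017063, the gene with the transporter description, followed at 42.2 FPKM in Ls-6mm and was first in Ls-4mm at 70.8 FPKM. BGIOSGA024007 had 38.3 FPKM in Ls-6mm and 58.4 FPKM in Ls-4mm. These 3 genes lay on chromosomes 4, 4 and 7. BGIOSGA013535 had 18.6 FPKM in Ls-6mm and 47.5 FPKM in Ls-4mm, and BGIOSGA002245 had 18.6 FPKM in Ls-6mm and 44.2 FPKM in Ls-4mm. WRKY51 was the most abundant member with a gene name, at 30.2 FPKM in Ls-6mm and 37.1 FPKM in Ls-4mm.

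Within each gene the stages were compared by CPM. BGIOSGA024007 had 73.2, 74.6 and 74.7 CPM in Ls-6mm and 110.6, 110.5 and 108.4 CPM in Ls-4mm. The replicates were tight and the stages well apart, at a log2 fold change of −0.57 ± 0.04 (SE; edgeR adjusted p = 9.11e-10). BGIOSGA017063 had 39.9, 40.6 and 42.3 CPM in Ls-6mm and 63.2, 72.6 and 64.6 CPM in Ls-4mm (−0.71 ± 0.06, edgeR adjusted p = 7.66e-09). The falls of BGIOSGA013535 and BGIOSGA002245 were larger. BGIOSGA013535 had 19.5, 23.6 and 24.1 CPM in Ls-6mm and 53.9, 57.4 and 55.8 CPM in Ls-4mm (−1.31 ± 0.07, edgeR adjusted p = 2.62e-11). BGIOSGA002245, annotated with the WRKY domain alone, had 17.3, 15.5 and 16.4 CPM in Ls-6mm and 35.3, 36.4 and 41.8 CPM in Ls-4mm (−1.21 ± 0.08, edgeR adjusted p = 3.47e-10).

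Other abundant members changed little in fold. BGIOSGA027300 had 50.8, 46.9 and 45.6 CPM in Ls-6mm and 64.1, 65.1 and 60.4 CPM in Ls-4mm (log2 fold change −0.40 ± 0.06). BGIOSGA035895 had 40.6, 40.8 and 42.2 CPM in Ls-6mm and 44.2, 52.6 and 47.6 CPM in Ls-4mm (−0.23 ± 0.06). In both genes every Ls-6mm library lay under every Ls-4mm library, with edgeR adjusted p of 3.61e-06 and 0.0037. In the opposite direction, BGIOSGA023966 had 32.3, 29.0 and 31.3 CPM in Ls-6mm and 22.2, 22.1 and 21.2 CPM in Ls-4mm (0.50 ± 0.07). BGIOSGA029574 had 31.3, 30.7 and 28.7 CPM in Ls-6mm and 13.7, 15.6 and 14.7 CPM in Ls-4mm (1.04 ± 0.08). Both were higher in Ls-6mm without overlap, with edgeR adjusted p of 5.71e-06 and 1.68e-09.

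**Figure D3:**
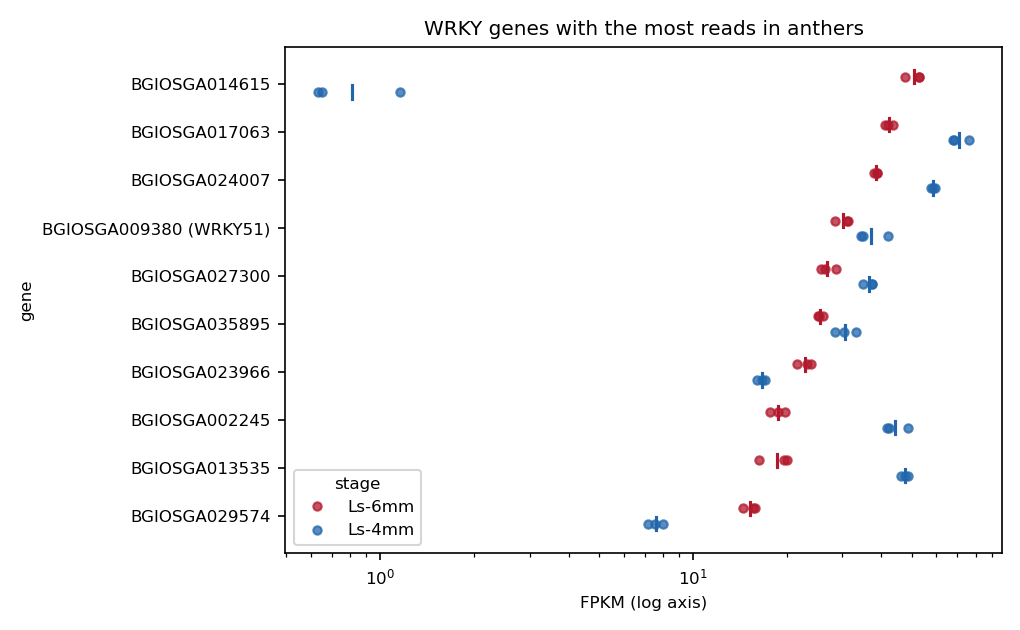
FPKM on a log axis (horizontal) of the 10 WRKY genes that were among the 8 with the most reads in either stage (vertical), with 3 points per stage for the libraries and a line at the mean. BGIOSGA014615 stands at 51 FPKM in Ls-6mm and 0.813 FPKM in Ls-4mm, while the other 9 genes lie within 3-fold between the stages.

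The strongest rise of an abundant member was that of BGIOSGA014615, on chromosome 4 (26093795 to 26097192, minus strand, coordinates as deposited). It had 411, 450 and 401 reads in Ls-6mm and 8, 5 and 5 reads in Ls-4mm, or 24.6, 22.2 and 24.6 CPM in Ls-6mm and 0.520, 0.289 and 0.295 CPM in Ls-4mm. The gene was close to silent in every Ls-4mm library and ranked first per length in Ls-6mm, with a gene length of 447 bases. By reads it was not first there, with a mean of 23.8 CPM beside 74.2 CPM for BGIOSGA024007. The log2 fold change of BGIOSGA014615 was 6.00 ± 0.18. That gene passed the filter only through Ls-6mm, where it was high. The table annotated it with the WRKY domain and gave no number.

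A set of low members was near 0 in Ls-4mm. BGIOSGA001069 had 7.71, 8.03 and 7.55 CPM in Ls-6mm and 0.325, 0.346 and 0.473 CPM in Ls-4mm (log2 fold change 4.32 ± 0.23). BGIOSGA036823 had 4.42, 4.48 and 5.83 CPM in Ls-6mm and 0.585, 0.923 and 0.591 CPM in Ls-4mm (2.78 ± 0.25, edgeR adjusted p = 1.69e-08). Both were low but detected in all 6 libraries, and BGIOSGA001069 passed the filter only through Ls-6mm, where it was high. For the next genes Ls-4mm held 3 counts or fewer, so the ratio is given with its exact 95% counting interval. BGIOSGA004027 had 144 counts in Ls-6mm and 1 in Ls-4mm, a ratio of 134.0 (23.7 to 5330.0). WRKY58 (BGIOSGA017690) had 109 counts in Ls-6mm and 3 in Ls-4mm (33.8, 11.3 to 166.5). WRKY67 (BGIOSGA018676) had 60 counts in Ls-6mm and 3 in Ls-4mm (18.6, 6.07 to 92.8). These intervals cover counting error alone, and all 3 genes passed the filter only through Ls-6mm, where they were high. BGIOSGA004404 had 1.37, 1.43 and 1.23 CPM in Ls-6mm and no count in Ls-4mm. Against a floor of 3 counts over the Ls-4mm libraries it was 22.2-fold higher in Ls-6mm, the stage through which it passed the filter. That value takes the Ls-6mm mean as exact. The smallest of the 8 leading rises was BGIOSGA009781, with 1.85, 1.03 and 1.35 CPM in Ls-6mm and 0.325, 0.519 and 0.709 CPM in Ls-4mm (1.41 ± 0.36). It passed the filter mainly through Ls-6mm, where it was high.

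The falls were led by genes that stayed detectable in Ls-6mm. BGIOSGA005924 had 1.31, 2.27 and 1.84 CPM in Ls-6mm and 8.85, 10.1 and 9.10 CPM in Ls-4mm (log2 fold change −2.35 ± 0.18, edgeR adjusted p = 2.02e-09). WRKY71 (BGIOSGA007670), which in rice represses gibberellin signalling in the aleurone, had 0.418, 0.838 and 0.983 CPM in Ls-6mm and 3.58, 3.92 and 4.02 CPM in Ls-4mm (−2.35 ± 0.26). Both genes fell about as far, with no overlap between stages, though WRKY71 passed the filter mainly through Ls-4mm, where it was high. BGIOSGA014906 had 5.97, 5.42 and 4.30 CPM in Ls-6mm and 16.7, 15.6 and 16.6 CPM in Ls-4mm (−1.64 ± 0.12, edgeR adjusted p = 1.47e-09). BGIOSGA033505 had 2.57, 2.36 and 1.78 CPM in Ls-6mm and 5.66, 6.06 and 7.09 CPM in Ls-4mm (−1.48 ± 0.18, edgeR adjusted p = 1.08e-06). The lowest fitted value belonged to BGIOSGA005267, a gene picked out after its values were seen because it stayed under 1 CPM at both stages on average. It had 0.0597, 0.148 and 0.0614 CPM in Ls-6mm and 1.17, 1.10 and 0.709 CPM in Ls-4mm (−3.30 ± 0.52), and it passed the filter only through Ls-4mm, where it was high.

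Of the 22 members with a WRKY number 13 were tested. In Ls-6mm 3 of them were higher (WRKY44, WRKY58 and WRKY67), 8 were lower and 2 were not called (WRKY24 and WRKY39), beside 42% higher and 38.6% lower over all genes. Those whose rice namesakes have a role given here are described next, and that choice was made with earlier results known. The entry described as WRKY 45-2 (BGIOSGA019621), whose rice namesake WRKY45 acts in the salicylic acid pathway of blast resistance, had 3.82, 4.34 and 4.36 CPM in Ls-6mm and 11.1, 12.8 and 12.6 CPM in Ls-4mm (log2 fold change −1.54 ± 0.13, edgeR adjusted p = 6.1e-09). WRKY53 (BGIOSGA019646), which acts in defence and brassinosteroid signalling in rice, had 4.00, 3.20 and 3.75 CPM in Ls-6mm and 7.09, 8.31 and 7.86 CPM in Ls-4mm (−1.09 ± 0.15, edgeR adjusted p = 3.23e-06). Both fell without overlap between the stages. WRKY13 (BGIOSGA000826), a disease resistance regulator in rice, had 10.7, 10.002 and 9.77 CPM in Ls-6mm and 11.1, 14.1 and 12.8 CPM in Ls-4mm (−0.32 ± 0.11, edgeR adjusted p = 0.0142). That call rested on Ls-4mm replicate 2, without which the log2 fold change was −0.24 and the adjusted p 0.0780.

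WRKY47 (BGIOSGA023706), a drought response regulator, had 1.25, 1.53 and 0.676 CPM in Ls-6mm and 4.68, 4.10 and 6.03 CPM in Ls-4mm (log2 fold change −2.06 ± 0.25, edgeR adjusted p = 1.01e-06). WRKY74 (BGIOSGA030535), which acts in phosphate starvation, had 2.39, 3.35 and 1.47 CPM in Ls-6mm and 6.77, 7.27 and 5.97 CPM in Ls-4mm (−1.44 ± 0.22, edgeR adjusted p = 1.07e-05). For both genes every Ls-6mm library lay under every Ls-4mm library. WRKY51 (BGIOSGA009380), a partner of WRKY71 in repressing gibberellin responses of the aleurone, had 32.3, 32.1 and 29.4 CPM in Ls-6mm and 34.4, 42.5 and 35.2 CPM in Ls-4mm (−0.26 ± 0.08, edgeR adjusted p = 0.0069). Without Ls-4mm replicate 2 its log2 fold change was −0.16 and its adjusted p 0.0571. WRKY24 (BGIOSGA004722), a repressor of gibberellin and abscisic acid signalling in the aleurone, was low, at 0.538, 0.591 and 0.614 CPM in Ls-6mm and 0.716, 0.981 and 0.591 CPM in Ls-4mm. Its stages overlapped and it was not called (−0.39 ± 0.36, edgeR adjusted p = 0.322).

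Other regulators of rice defence were almost without reads. WRKY76 (BGIOSGA029758) and WRKY62 (BGIOSGA029757), negative regulators of defence, had 4 and 0 counts over the Ls-6mm libraries and 2 and 1 over the Ls-4mm libraries. WRKY70 (BGIOSGA017876), which acts in responses to herbivores, had 2 counts in Ls-6mm and none in Ls-4mm. WRKY72 (BGIOSGA035289) had 5 counts in Ls-6mm and 7 in Ls-4mm. None of these could be tested, and a difference between the stages was not detectable at this depth. A second entry numbered 74 (BGIOSGA022355) had no read in any library.

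Among the 46 untested members with a count, 20 had fewer than 10 counts in all and 26 had 10 to 54. The stages did not overlap in 12 of them, 7 with Ls-6mm above and 5 with Ls-4mm above. Apart from BGIOSGA004404, the genes with reads in Ls-6mm alone and at least 10 of them were BGIOSGA003306, BGIOSGA020451 and BGIOSGA012571. BGIOSGA003306 had 10, 26 and 13 counts in the Ls-6mm libraries and was 14.8-fold higher in Ls-6mm against the same floor. BGIOSGA020451 had 15, 8 and 4 counts in Ls-6mm (8.47-fold against that floor), and BGIOSGA012571 had 1, 8 and 3 (3.52-fold). These folds take the Ls-6mm mean as exact and leave out the spread of its libraries. No gene had 10 or more counts in Ls-4mm with none in Ls-6mm. With the filter removed, edgeR called 11 of the 46 genes, 6 higher and 5 lower. Over all 32548 genes of that fit, 11399 were higher and 9925 lower. The shares called or not overlapping among all genes with such low counts were not computed, so these counts are no result about the family.

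The 6 tested genes that were not called lay between log2 fold changes of −0.50 and 0.14. The most abundant, BGIOSGA010657, had 14.9, 14.98 and 13.8 CPM in Ls-6mm and 13.07, 13.04 and 13.5 CPM in Ls-4mm. Its stages did not overlap, yet the difference was small (0.14 ± 0.09, edgeR adjusted p = 0.159). WRKY39 (BGIOSGA007926) had 3.70, 3.99 and 3.32 CPM in Ls-6mm and 2.99, 3.40 and 3.72 CPM in Ls-4mm, which overlapped (0.12 ± 0.18, edgeR adjusted p = 0.523). BGIOSGA003134 was called but is less certain, and was picked out after its values were seen. It had 3.35, 2.02 and 4.12 CPM in Ls-6mm and 1.04, 2.25 and 2.07 CPM in Ls-4mm, which overlapped (0.78 ± 0.29, edgeR adjusted p = 0.0213), and the call was lost without Ls-4mm replicate 1, Ls-6mm replicate 1 or Ls-6mm replicate 3, and with limma on log2(FPKM + 1).

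Many WRKY genes lie next to one another in the genome. With gaps of at most 50 kb, 35 of the 103 members fell into 13 groups. Of these 35 genes 9 were tested (25.7%) and 8 were at 0 in all 6 libraries, whereas 34 of the 68 genes outside such groups were tested (50%). The grouped genes held 11.7% of the summed CPM in Ls-6mm and 6.72% in Ls-4mm. Without BGIOSGA014615, left out after its values were seen, the shares of the remaining sum were 7.07% in Ls-6mm and 6.66% in Ls-4mm. The coordinates are as deposited. The study links an O. longistaminata genome, while the identifiers carry an indica rice prefix, so their build is unresolved. Reads of near-identical neighbours could have been split between copies or left out, so low counts of such genes are uncertain.

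A single group held genes called in both directions. On chromosome 4, BGIOSGA014615 and BGIOSGA014617 (26079326 to 26085621) lay 8174 bases apart on the minus strand. BGIOSGA014615 rose as given above. BGIOSGA014617 had 2.75, 2.51 and 2.15 CPM in Ls-6mm and 4.29, 6.29 and 4.55 CPM in Ls-4mm (log2 fold change −1.03 ± 0.20, edgeR adjusted p = 0.000132). Neither gene overlapped between the stages, and their order of abundance was opposite in Ls-6mm and Ls-4mm.

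The 3 groups of 5 genes each had silent and active members side by side. On chromosome 1 (38436908 to 38503851), BGIOSGA004705 had 12.7, 12.2 and 12.2 CPM in Ls-6mm and 5.59, 7.21 and 7.62 CPM in Ls-4mm (log2 fold change 0.85 ± 0.12, edgeR adjusted p = 6.79e-06). At the other end of that group BGIOSGA004701 had 0.896, 0.985 and 0.798 CPM in Ls-6mm and 0.195, 0.404 and 0.295 CPM in Ls-4mm (1.55 ± 0.40). It passed the filter only through Ls-6mm, where it was high. Both outer genes were higher in Ls-6mm, and between them BGIOSGA004703 and BGIOSGA004704 had no count in any library. BGIOSGA000583 in the same group had 3 counts in Ls-6mm and 16 in Ls-4mm and was not tested. On chromosome 12 (986294 to 1047435), BGIOSGA036759 had 2.81, 3.01 and 2.03 CPM in Ls-6mm and 3.77, 4.67 and 3.78 CPM in Ls-4mm (−0.63 ± 0.20, edgeR adjusted p = 0.00709). BGIOSGA036755 of that group was called lower with overlapping libraries, at 0.299, 0.345 and 1.04 CPM in Ls-6mm and 1.63, 1.04 and 1.65 CPM in Ls-4mm (−1.38 ± 0.41). It passed the filter mainly through Ls-4mm, where it was high. Without Ls-6mm replicate 3 its log2 fold change was −2.12. On chromosome 11 (443560 to 485807), BGIOSGA034615 alone was tested, with 5.38, 5.62 and 4.67 CPM in Ls-6mm and 8.07, 6.29 and 5.79 CPM in Ls-4mm. Its fall was just past the threshold (−0.35 ± 0.15, edgeR adjusted p = 0.0458) and was lost without Ls-4mm replicate 1 (−0.21, adjusted p = 0.234), Ls-6mm replicate 1 or Ls-6mm replicate 3.

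**Figure D4:**
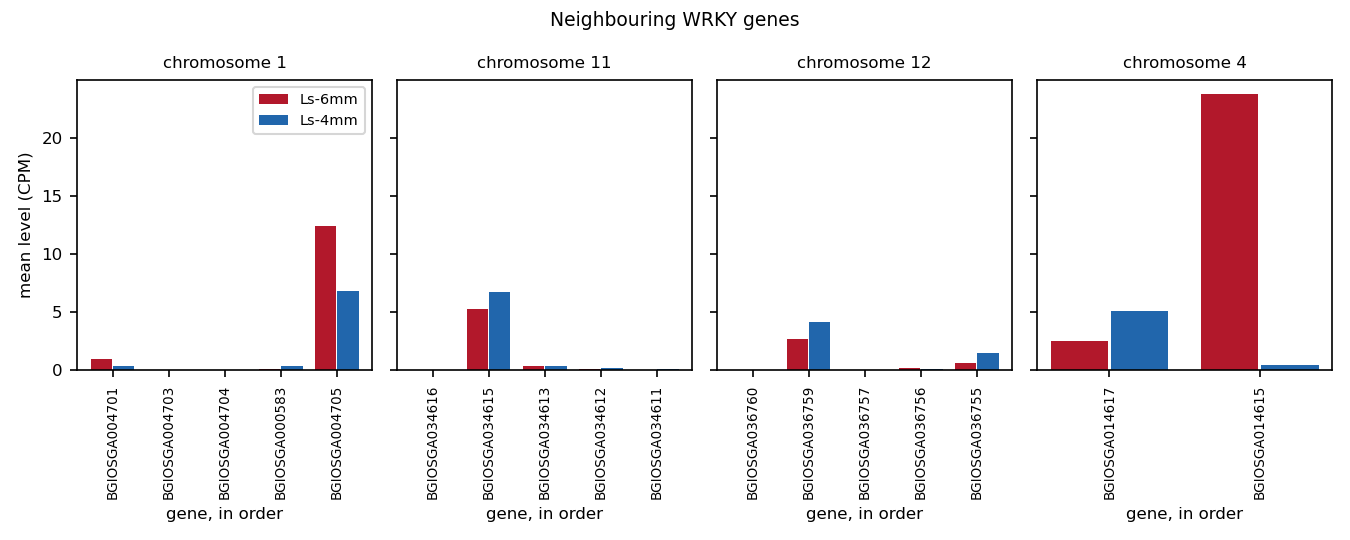
Mean CPM over 3 libraries (vertical axis) in Ls-6mm and Ls-4mm of the 3 groups of 5 neighbouring WRKY genes and of the pair on chromosome 4, with genes in their order along the chromosome (horizontal axis). BGIOSGA014615 reaches 23.8 CPM in Ls-6mm beside 0.368 CPM in Ls-4mm, its neighbour BGIOSGA014617 has 2.47 CPM in Ls-6mm beside 5.04 CPM in Ls-4mm, and several genes of each larger group are at or near 0.

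The groups of 2 were mostly quiet. The 45-2 entry lay 24255 bases from BGIOSGA019620, which had 2 counts in Ls-6mm and none in Ls-4mm. WRKY76 and WRKY62 were neighbours on chromosome 9, 15216 bases apart. BGIOSGA012523 and BGIOSGA012525 on chromosome 3 had 18 and 14 counts in Ls-6mm and 23 and 14 in Ls-4mm. BGIOSGA019117 on chromosome 5 was the remaining tested gene of these groups and was not called, at 0.777, 1.48 and 1.11 CPM in Ls-6mm and 1.56, 1.21 and 1.00 CPM in Ls-4mm.

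Genes that act with WRKY proteins were described from 4 lists. VQ motif proteins bind WRKY proteins and change their activity. Of 43 genes in the table, 19 were tested, 10 were higher and 5 lower in Ls-6mm (52.6% and 26.3%, against 42% and 38.6% of all genes). Their median log2 fold change was 0.45. The most abundant, BGIOSGA020407, was lower, at 21.1 ± 1.57 CPM in Ls-6mm and 29.5 ± 5.20 CPM in Ls-4mm (SD, n = 3 each; log2 fold change −0.49 ± 0.10). BGIOSGA030630 was also lower, at 5.97 ± 0.875 CPM in Ls-6mm and 18.6 ± 0.967 CPM in Ls-4mm (−1.63 ± 0.11). The largest fitted change was that of BGIOSGA014150, at 2.17 ± 0.197 CPM in Ls-6mm with no count in Ls-4mm, 35.8-fold higher in Ls-6mm against the Ls-4mm floor. That gene passed the filter only through Ls-6mm. The edgeR adjusted p of BGIOSGA020407 and BGIOSGA030630 were 0.000418 and 7e-10.

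The genes of MAP kinases, which phosphorylate some WRKY proteins, and of MAP kinase kinases, which act upstream of MAP kinases, were all expressed. All 15 were tested, 9 were higher and 6 lower in Ls-6mm (60% and 40%, against 42% and 38.6% of all genes). Their median log2 fold change was 0.37. The most abundant, BGIOSGA004162, had 106.6 ± 2.18 CPM in Ls-6mm and 73.9 ± 1.60 CPM in Ls-4mm (0.53 ± 0.04, edgeR adjusted p = 3.59e-09), and BGIOSGA019167 had 102.2 ± 3.86 CPM in Ls-6mm and 74.6 ± 2.82 CPM in Ls-4mm (0.46 ± 0.05). The largest change was that of BGIOSGA010959, at 16.2 ± 0.539 CPM in Ls-6mm and 4.40 ± 0.850 CPM in Ls-4mm (1.87 ± 0.13, edgeR adjusted p = 5.21e-10).

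TIFY proteins include the JAZ repressors of jasmonate signalling, a pathway in which several WRKY proteins act. Of 16 genes 9 were tested, 4 were higher and 3 lower in Ls-6mm (44.4% and 33.3%, near the 42% and 38.6% of all genes). TIFY10B (BGIOSGA026133) had 118.6 ± 3.03 CPM in Ls-6mm and 25.1 ± 2.24 CPM in Ls-4mm (log2 fold change 2.24 ± 0.06, edgeR adjusted p = 8.32e-16). The next in abundance, BGIOSGA029796, was lower, at 60.3 ± 2.23 CPM in Ls-6mm and 72.4 ± 0.890 CPM in Ls-4mm (−0.26 ± 0.05, edgeR adjusted p = 6.74e-05). The largest fitted change was that of BGIOSGA032000, at 0.919 ± 0.277 CPM in Ls-6mm and no count in Ls-4mm. Against the Ls-4mm floor it was 15.2-fold higher in Ls-6mm, the stage through which it passed the filter.

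Pathogenesis-related and defence products are a class that holds many known WRKY targets. Of 79 genes 37 were tested, 20 were higher and 16 lower in Ls-6mm (54.1% and 43.2%, against 42% and 38.6% of all genes). Their median log2 fold change was 0.93. BGIOSGA015623, of the thaumatin family, had 440.4 ± 14.7 CPM in Ls-6mm and 1.24 ± 0.185 CPM in Ls-4mm (8.48 ± 0.08, edgeR adjusted p = 1.24e-21). BGIOSGA035727, also thaumatin-like, had 333.5 ± 46.9 CPM in Ls-6mm and no count in Ls-4mm. Against the Ls-4mm floor it was 5517-fold higher in Ls-6mm, the only stage through which it passed the filter. Thaumatin-like and Bet v I proteins also occur in plants that are not under attack. BGIOSGA016576, of the Bet v I family, had 280.3 ± 10.7 CPM in Ls-6mm and 130.2 ± 5.49 CPM in Ls-4mm (1.11 ± 0.04, edgeR adjusted p = 2.03e-13).

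Set beside other families of plant transcription factors, the WRKY genes had the lowest share of rises among the 5 families listed here. Of 93 tested NAC genes 61 were higher and 22 lower in Ls-6mm (median log2 fold change 1.22). Of 158 MYB genes 84 were higher and 44 lower (0.54), and of 81 AP2/ERF genes 55 were higher and 19 lower (0.88). The bHLH genes lay nearest to the WRKY genes, with 29 of 80 higher and 36 lower (−0.10). Differences between families were not tested.

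**Figure D5:**
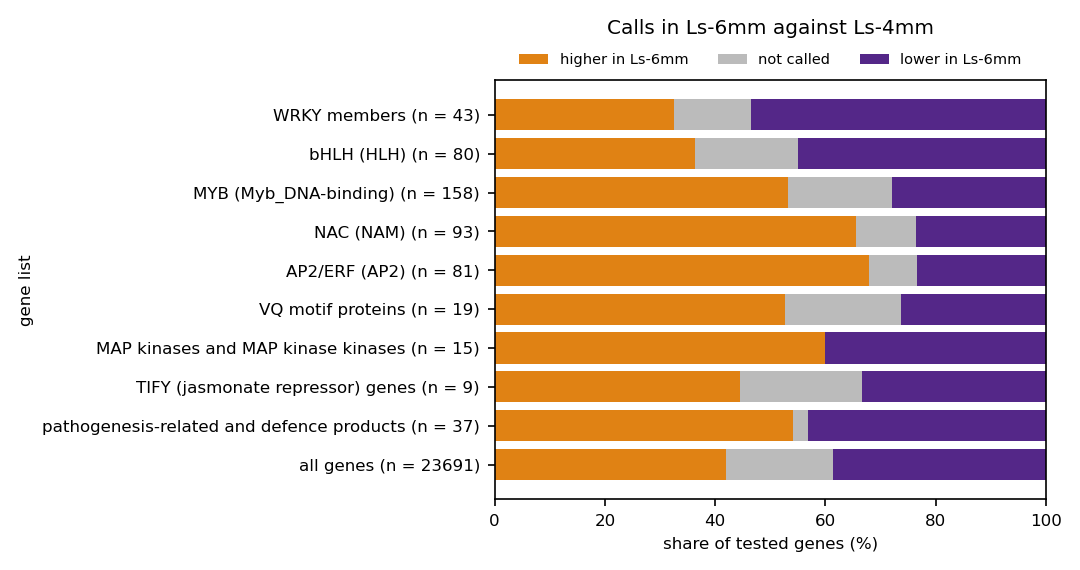
Share in percent (horizontal axis) of the tested genes that were higher in Ls-6mm, not called or lower in Ls-6mm, for the WRKY genes, 4 other transcription factor families, the 4 lists of partner, upstream and target genes, and all genes tested (vertical axis, number tested in brackets). The WRKY bar shows 32.6% higher and 53.5% lower, and the bar for all genes 42% higher and 38.6% lower.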

How the data were processed

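RNA was extracted from anthers with TRIzol, poly(A)-selected and sequenced on the Illumina HiSeq 2000. Per the labels and the study's methods, the authors aligned clean reads with HISAT2 2.0.5 and counted them per gene with featureCounts 1.5.0-p3. The deposited table holds raw counts per gene and FPKM made by the authors from those counts and the gene length, which is a coding length for most genes. The study's methods link an Ensembl genome of O. longistaminata as the reference, but the gene identifiers in the table carry the BGIOSGA prefix of indica rice, so the build of the coordinates is unresolved. No strand setting was given in the sources read, so overlapping antisense genes cannot be separated. DESeq2 1.16.1 and edgeR 3.18.1 are also named in the processing notes. Columns with the authors' fold changes and p-values were not used, nor were 36 columns of values that no sample label matched. The table was used as deposited, without remapping, and no sequence was analysed here.

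Groups followed the sample titles. Low genes were removed by filterByExpr at its minimum count of 10 and total of 15. TMM factors set the library sizes, and the effect of stage was tested in edgeR 4.0.16 (R 4.3.3), with a call at an adjusted p under 0.05. CPM used TMM-scaled library sizes (factors 0.951 to 0.956 in Ls-6mm and 1.039 to 1.060 in Ls-4mm). The floor was 3 counts over a stage, or 0.0563 CPM in Ls-6mm and 0.0605 CPM in Ls-4mm. Folds against it take the mean of the other stage as exact. No source says whether the libraries came from separate plants, so p-values measure the spread between these libraries, with a biological coefficient of variation of 4.73%. Named members were the 8 most abundant of each stage, the 8 largest called rises and falls with at least 1 CPM in the higher stage and no overlap, members with selected WRKY numbers, members seen in 1 stage with at least 10 counts, and neighbours within 50 kb. Of each partner list, the 2 most abundant genes and the largest called change were named. The members and lists were chosen with earlier results of these data known. Alternatives used DESeq2 1.42.0, limma 3.58.1 on log2(FPKM + 1), other scalings and filters, a replicate block, and each library left out in turn.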

Additional observations from a re-analysis of the deposited data

How the results depend on the processing

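The counts of 14 WRKY genes higher and 23 lower in Ls-6mm stayed within 1.5 times under DESeq2, both other scalings, limma and no filter, the last with 20 higher and 28 lower. With each library left out in turn, 13 to 15 were higher and 21 to 24 lower. Requiring 10 counts in every library left 30 members tested and 5 higher, since that filter removes genes near 0 in Ls-4mm. Under the stricter rule (adjusted p of 0.001 or less, change of 2-fold or more) 8 were higher and 12 lower. With members taken by description alone, 8 were higher and 13 lower. The 4 partner lists together had 43 genes higher and 30 lower (41 to 45 and 27 to 30 with a library left out), 28 higher with 10 counts in every library, and 11 lower under that stricter rule. The median log2 fold change of −0.35 was −0.058 without the filter and ran from −0.44 to −0.18 with a library left out, the last without Ls-4mm replicate 2. The log2 ratio of summed levels, −0.34, was −0.47 with library size alone, which shifts the median of all genes by −0.14, and −0.21 for members by description alone, and ran from −0.36 to −0.31 with a library left out. No result reversed. Of the calls, 13 of 14 rises and 20 of 23 falls held in every fit that tested the gene, but 9 of the 14 rises were not tested with 10 counts in every library. BGIOSGA034615 was also lost under DESeq2 (adjusted p = 0.105), RLE size factors (0.0561) and 10 counts in every library (0.0921). On log2(FPKM + 1) the fold changes of members near 0 are smaller by construction.

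Deviations of same-numbered libraries correlated at −0.0397, −0.0253 and −0.0139, so no shared effect of the replicate number was seen. Such values cannot tell whether the libraries were paired at sampling. With the replicate block 14 WRKY genes were again higher and 23 lower, and 18824 genes of all were called in place of 19103. Low counts limit the 60 untested members most.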
